A study of Homo sapiens with 5 samples.

Results

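The zinc finger genes of chromosome 19 are described here as they appear in the H2A-K130ac peak lists of C4-2B. Members were the genes of chromosome 19 whose symbol is ZNF followed by digits only, as the authors' annotation assigned them to peaks by the nearest gene start. The abiraterone list held 158 peaks at 95 of these genes, out of 757 peaks on chromosome 19 and 67806 annotated peaks in all. The Romidepsin list held 260 peaks at 127 of them, out of 1469 on chromosome 19 and 91398 in all. RefSeq names 241 such genes on chromosome 19, and 166 of them had a peak in at least 1 list, so that 75 had none (31.1%). Genes without a peak were not counted outside this set, so whether that share is unusual cannot be told.

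C4-2B is a human prostate cancer cell line that grows without added androgen. The sample labels name breast cancer for it, and the study's description of a prostate line was followed. Cells of 1 library received abiraterone, which blocks CYP17A1 and with it the synthesis of androgens, and those of the other with Romidepsin, an inhibitor of histone deacetylases. The control over which peaks were called is given as input in the names of the deposited lists and as the vehicle-treated sample in the study's reporting form, so folds are given over the control without naming it. The antibody recognizes histone H2A acetylated at lysine 130. The 3 VCaP samples (DMSO, Romidepsin and input) were not analysed here, nor was any C4-2B library without treatment. Dose and duration are given in the study for its C4-2B ChIP-qPCR but not for the C4-2B libraries sequenced here, and the labels carry over the protocol written for VCaP (0.5 µM Romidepsin). With 1 library per treatment, no difference between treatments was tested. All intervals below are exact 95% binomial intervals, or Newcombe intervals for differences, and cover the counting of peaks only.

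Most zinc finger genes of chromosome 19 encode proteins with a KRAB domain followed by an array of C2H2 zinc fingers, which reads DNA. The KRAB domain binds TRIM28 (KAP1), which brings in the H3K9 methyltransferase SETDB1 and HP1 proteins and silences the site, very often a transposable element. The genes arose by repeated duplication and lie in clusters of close paralogs, and in many the whole finger array is coded by the last exon. The gene bodies of many of these genes carry H3K9me3 themselves, whereas histone acetylation generally accompanies open chromatin. Since paralogs share long stretches of sequence, reads from near-identical finger exons may be placed at the wrong copy, and peaks at such copies are uncertain to that extent.

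The kinship is visible in the promoters. Of the 241 genes, 210 (87.1%) had a sequence in the RefSeq promoter table of GRCh38.p14, which spans 250 bases before the start to 50 after it. Between 20 and 25 Mb of chromosome 19, 6 genes had a peak within 1 kb of a start assigned to them, and 5 of them had a promoter sequence. Shown first, because these genes recur below, are 30 bases around the CCAAT box nearest to the start of each, with the box in capitals.
ZNF91: gctgggaactgtCCAATcaggcacaaagct
ZNF675: gctgggaaccgtCCAATcaggcacgcagct
ZNF726: cctgggaactgtCCAATcaggcacgcagct
ZNF85: gctgggaaccgtCCAATcaggaacgcagct
ZNF708: ttttaacattatCCAATcagggactctgag
ZNF675 and ZNF726 each matched ZNF91 at 27 of 30 bases and ZNF85 at 26, while ZNF708 matched it at 16. These windows, except that of ZNF708, are thus near copies of 1 sequence. ZNF726, ZNF85 and ZNF675 hold another CCAAT box further upstream, at -87, -81 and -52 bases from the start. The ZNF708 window was not compared with those boxes, so its lower match does not set its promoter apart from the others. The ZNF91 stretch is chr19:23395512-23395541 on the minus strand. In 4 of these promoters, all but that of ZNF675, in which GGGCGG was not found on either strand, the GC box (GGGCGG, in capitals) lies in a stretch that ZNF708 shares as well.
ZNF91: ctggagcggacaGGGCGGcttccgggatgt
ZNF726: ctggagcgaacaGGGCGGcttccgggattt
ZNF85: ctggtgcggataGGGCGGcttccgggatgt
ZNF708: ctggaccggacaGGGCGGcttccgggtttg
Here ZNF726 and ZNF85 matched ZNF91 at 28 of 30 bases and ZNF708 at 26.

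Motif letters were counted on both strands in the promoter windows. A CCAAT box (CCAAT) stood in 52.9% of the 210 ZNF promoters, in 36.2% of the 1300 promoters of other chromosome 19 genes and in 35.7% of all 27305. A GC box (GGGCGG) stood in 69.5%, 60.9% and 44.6% of them. Among the 27 matched ZNF genes with a peak within 1 kb of a start the shares were 48.1% for CCAAT and 66.7% for the GC box. Among the 64 matched ZNF genes without any peak they were 51.6% and 71.9%. A single start per gene was used for the sequences. For some genes, among them ZNF85, ZNF528 and ZNF414, the peak was assigned to another start than the gene's outermost one. The windows of the 27 are therefore not all at the start with the peak. The E-box CACGTG, a sequence that SREBF1 can bind, was in none of the 27 promoters, in 3.81% of all ZNF promoters and in 7.43% of all promoters. A sterol regulatory element written as TCACNCCAC was in none of the 27 either, against 4.29% of ZNF promoters and 1.15% of all promoters. Among the 119 matched ZNF genes with peaks but none within 1 kb of a start, the shares were 5.04% and 2.52%. With motifs this rare, few of 27 promoters would hold either, so their absence does not set the 27 apart. The median GC content was 61.0% in the 27 promoters and 59.3% in the ZNF promoters without a peak. None of the 4 motifs contains another.

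Most H2A-K130ac peaks at the ZNF genes were distal intergenic or intronic, but fewer of them were distal than on other chromosomes. In the abiraterone list 63 of 158 were distal intergenic (39.9%, interval 32.2 to 48.0), 50 lay in introns (31.6%), 31 within 3 kb of a start (19.6%), 10 in exons (6.33%) and 2 in a 3′ UTR (1.27%). In the Romidepsin list 91 of 260 were distal intergenic (35.0%, interval 29.2 to 41.1), 88 lay in introns (33.8%), 54 within 3 kb of a start (20.8%), 13 in exons (5.00%) and 10 in a 3′ UTR (3.85%). Both lists gave the same order of these 5 classes. On the other chromosomes promoter peaks were rarer (7.37% and 8.58%), as were exon peaks (2.65% and 3.24%), and distal intergenic peaks were more frequent (48.6% and 48.3%). At ZNF genes of other chromosomes the promoter shares were 10.4% and 12.6%, the exon shares 2.78% and 2.74% and the distal shares 51.7% and 50.8%.

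**Figure D1:**
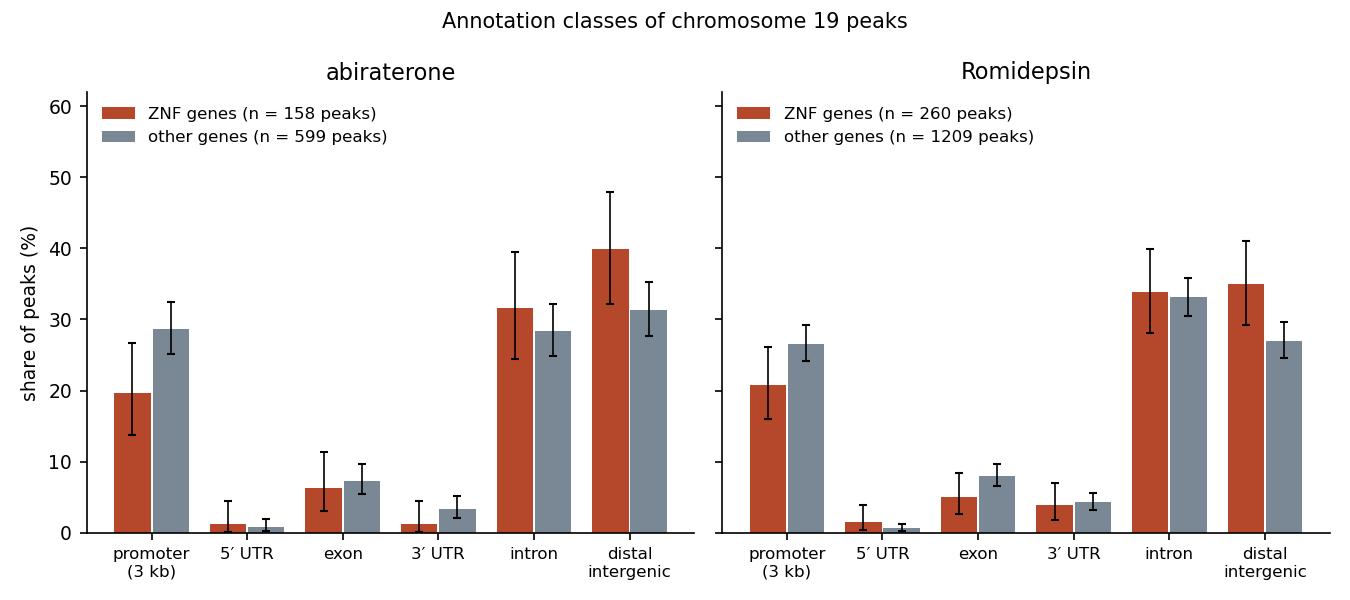
Share of peaks (%, vertical axis) in each annotation class for ZNF genes and for other genes of chromosome 19, with the abiraterone list on the left and the Romidepsin list on the right. Bars are shares and whiskers exact 95% binomial intervals. ZNF genes have the lower promoter bar and the higher distal intergenic bar in both lists, differences whose intervals include 0 without ZNF536, while the exon and 3′ UTR intervals of the 2 sets overlap.

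Beside the other genes of chromosome 19, the promoter share was lower and the distal share higher at ZNF genes. The intervals of these differences include 0 once ZNF536 or 1 stretch of the chromosome is left out. The promoter share differed by -9.09 points in the abiraterone list (19.6% against 28.7%, interval -15.7 to -1.38) and by -5.86 points in the Romidepsin list (20.8% against 26.6%, interval -11.0 to -0.00476), the last of which ends at 0. Within 1 kb of a start the shares were 7.59% against 13.0% and 8.46% against 11.2%, and both intervals of the difference include 0. Distal intergenic peaks were 8.49 points more frequent (interval 0.240 to 17.1) in the abiraterone list and 7.95 points in the Romidepsin list, with an interval above 0 that reached 14.4. Exon shares did not separate the sets, at -1.02 points (interval -4.73 to 4.24) and -3.02 points (interval -5.67 to 0.622). The 3′ UTR shares did not either, at -2.07 points (interval -4.06 to 1.36) and -0.455 points, with an interval from -2.63 to above 0.

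ZNF536 alone supplied 11 of the 63 abiraterone and 18 of the 91 Romidepsin distal peaks and no promoter peak. Without it the distal difference was 5.49 points (interval -2.94 to 14.5) in the abiraterone list and 3.89 points (interval -2.23 to 10.5) in the Romidepsin list. The promoter difference was -6.73 points (interval -13.8 to 1.56) and -3.75 points (interval -9.28 to 2.50), so that every one of these 4 intervals includes 0.

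A stretch rich in distal peaks was left out in the same way. From 20 to 25 Mb, where a cluster of ZNF genes lies beside the centromere, 59.5% of the 37 abiraterone member peaks and 55.0% of the 40 Romidepsin member peaks were distal intergenic. On the rest of the chromosome the shares were 33.9% (interval 25.5 to 43.0) and 31.4% (interval 25.3 to 37.9), beside 31.2% and 27.0% of the other genes there. The promoter shares outside the stretch were 22.3% and 20.9%, against 28.5% and 26.7%, and the intervals of all 4 differences include 0. Of these, the Romidepsin promoter difference, -5.81 points, was near the -5.86 points of the whole chromosome. With ZNF536 left out too, the distal shares were 28.8% against 31.2% and 26.0% against 27.0%, so the direction turned. The promoter differences kept their direction, at -2.51 and -3.25 points. What underlies these differences was not tested. The stretch was chosen after its values had been seen.

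Exon peaks were few and often belonged to another gene than the one named. Of the 10 abiraterone exon peaks 5 lay in an exon of the nearest ZNF gene itself, and of the 13 Romidepsin exon peaks also 5 did. At other chromosome 19 genes 28 of 44 (63.6%) and 73 of 97 (75.3%) exon peaks lay in the gene named. The Romidepsin shares were the furthest apart, and their intervals (13.9 to 68.4 and 65.5 to 83.5) overlap. The last exon of its transcript held 5 of 10 (50.0%, interval 18.7 to 81.3) and 6 of 13 (46.2%), against 11 of 44 and 20 of 97 (20.6%) exon peaks at other chromosome 19 genes. These shares rest on too few peaks to separate the sets. In their own exons were abiraterone peaks at ZNF441 (exon 5 of 5), ZNF429 (exon 2 of 4, 4.48-fold over the control, -log10 q 2.87), ZNF175 (exon 4 of 5), ZNF841 (exon 5 of 7) and ZNF550 (exon 4 of 6). Romidepsin peaks lay in the own exons of ZNF763 (exon 2 of 4, 4.30-fold), ZNF45 (exon 4 of 4), ZNF160 (exon 5 of 7), ZNF331 (exon 7 of 7) and ZNF749 (exon 3 of 3). Peaks in exons or 3′ UTRs in both lists were found at ZNF429 and ZNF480 only, and at different places in each. At ZNF429 the Romidepsin exon peak lay in the noncoding gene LINC00664, and at ZNF480 the 2 peaks were labelled exon 7 and exon 6 of a transcript without a gene identifier. Most of the 3′ UTR labels came from Romidepsin, at ZNF627, ZNF431, ZNF536, ZNF527, ZNF230 and ZNF587 within the gene's own limits, while those of ZNF709, ZNF555, ZNF808 and ZNF417 lay outside them.

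Nearest-start naming can hide a ZNF gene. ZNF146, which codes for a protein of zinc fingers without a KRAB domain, had 1 abiraterone peak by name, in an intron of its neighbour ZNF565. The 2 abiraterone peaks listed under ZNF565, at chr19:36727690-36727814 and chr19:36727983-36728108, lay in exon 4 of 4 of ZNF146. Counting instead the ZNF genes whose exon or intron held the peak gave 7 exon and 46 intron peaks in the abiraterone list and 8 and 75 in the Romidepsin list.

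The number of peaks per gene was small, as at other genes of the chromosome. In the abiraterone list 65 of the 95 genes had 1 peak (68.4%), 19 had 2 and 11 had 3 or more, and the mean was 1.66 ± 1.85 (SD over the 95 genes). In the Romidepsin list 63 of 127 had 1 peak (49.6%), 36 had 2 and 28 had 3 or more, with a mean of 2.05 ± 2.31 (SD over the 127 genes). Among other chromosome 19 genes with a peak, 61.7% and 58.5% had 1, and the means were 1.66 ± 1.19 (SD over 360 genes) and 1.92 ± 1.80 (SD over 631 genes). The median was 1 peak in the abiraterone list and 2 in the Romidepsin list, while other chromosome 19 genes had a median of 1 in both. Within the merged limits of the 166 genes (4.25 Mb) there were 18.1 abiraterone and 28.7 Romidepsin peaks per Mb, against 13.9 and 27.9 per Mb within those of the 776 other genes with a peak. Limits are known only for genes that had a peak, so these densities are not those of all genes.

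**Figure D2:**
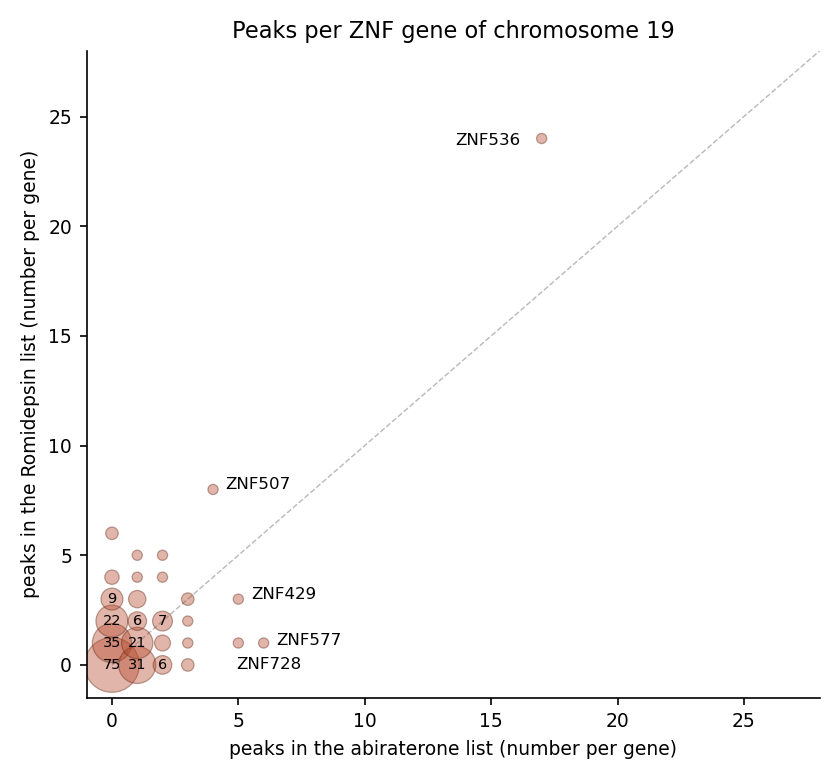
Number of peaks per gene in the abiraterone list (horizontal axis) and the Romidepsin list (vertical axis) for the 241 ZNF genes that RefSeq names on chromosome 19. Circle area grows with the number of genes at that pair of counts, written inside where it is above 5, and the dashed line marks equal counts. Most genes have 0 to 2 peaks in each list, and ZNF536 stands alone at 17 and 24.

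ZNF536 had by far the most peaks in both lists, with 17 of the 158 (10.8%) and 24 of the 260 (9.23%). It is a repressor of neuronal differentiation without a KRAB domain and lies at chr19:30863328-31048965 on hg19, away from the clusters. Only 6 peaks of each list lay within its limits. The abiraterone peaks comprised 11 distal intergenic and 6 intronic ones, and the Romidepsin peaks 18 distal intergenic, 5 intronic and 1 in the 3′ UTR. They reached from 177 kb upstream to 321 kb downstream of the start in the abiraterone list and from 157 kb upstream to 380 kb downstream in the Romidepsin list. No abiraterone peak overlapped a Romidepsin peak there, and 1 in each list lay within 1 kb of the other. Within the gene the density was 3.23 peaks per 100 kb in each list.

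**Figure D3:**
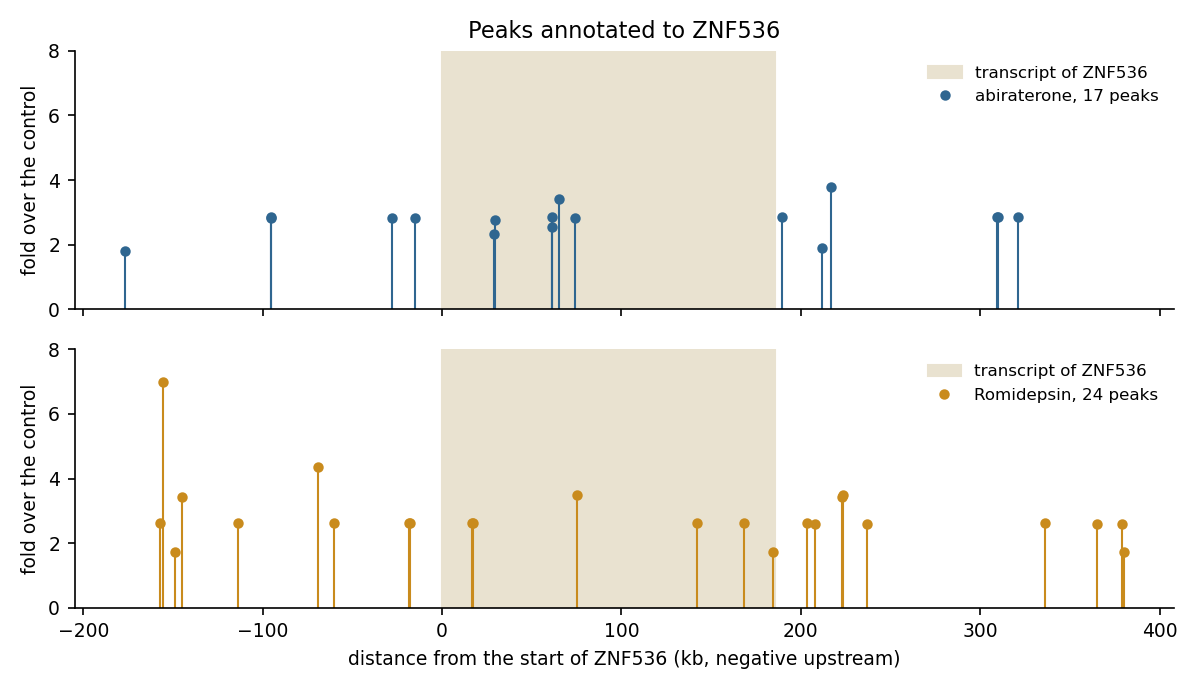
Fold over the control (vertical axis) of each peak annotated to ZNF536 by its distance from the gene's start (kb, horizontal axis, negative upstream), with the 17 abiraterone peaks above and the 24 Romidepsin peaks below. Each stem is 1 peak and the shaded band is the transcript. The peaks spread over both flanks of the gene, and the highest is a Romidepsin peak of 6.97-fold upstream of it.

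ZNF507, the next ZNF gene along the chromosome with a peak, had 4 abiraterone and 8 Romidepsin peaks, all of them distal intergenic and upstream of its start. ZNF577 came second in the abiraterone list with 6 peaks, against 1 in the Romidepsin list, and 5 of the 6 lay outside promoters. ZNF429 had 5 and 3 peaks, and ZNF728 had 5 and 1. ZNF45 and ZNF578 had 6 Romidepsin peaks each and no abiraterone peak. ZNF726 had 2 abiraterone and 5 Romidepsin peaks. Relative to length, the densest genes with at least 3 peaks inside their limits were ZNF45 (22.1 Romidepsin peaks per 100 kb), ZNF613 (16.4), ZNF527 (13.7), ZNF112 (9.95) and ZNF586 (9.70), and in the abiraterone list ZNF17 (9.35), ZNF573 (3.81) and ZNF536 (3.23). Different genes thus led in each list once length was taken into account.

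Peaks of the 2 lists seldom fell on the same place. Only 4 of the 158 abiraterone member peaks (2.53%, interval 0.694 to 6.35) shared a base with a Romidepsin peak, and 3 of the 260 Romidepsin member peaks (1.15%, interval 0.239 to 3.33) with an abiraterone peak. Over all peaks the shares were 4.04% and 2.90%, and at other chromosome 19 genes they were 2.50% and 1.16%, and the intervals of the ZNF genes include all of these. Within 1 kb, 9 peaks of each list had a counterpart (5.70% and 3.46%). The overlapping peaks were at ZNF43, ZNF614 and ZNF766. At ZNF43 a pair of abiraterone peaks of 125 and 126 bp lay toward both ends of 1 Romidepsin peak of 504 bp, chr19:22062540-22063043, upstream of the start. At ZNF766 an abiraterone peak of 4.74-fold (-log10 q 3.80) shared 178 bp with a Romidepsin peak of 2.61-fold, and at ZNF614 the peaks shared 23 bp within 3 kb of the start.

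By gene, 56 of the 166 ZNF genes had a peak in both lists (33.7%, interval 26.6 to 41.5), 39 in the abiraterone list only and 71 in the Romidepsin list only. The share was 27.7% (interval 24.6 to 31.0) among the 776 other chromosome 19 genes, 61.5% among ZNF genes of other chromosomes and 63.8% among all 18340 genes. The 56 genes were 58.9% of the abiraterone genes and 44.1% of the Romidepsin genes. The interval for ZNF genes of other chromosomes (54.4 to 68.3) lay above that of the ZNF genes of chromosome 19. The ZNF genes of other chromosomes also had more peaks each, with 540 abiraterone peaks at 143 genes and 730 Romidepsin peaks at 180. On chromosome 19 there were 158 at 95 and 260 at 127. The shares were not adjusted for peaks per gene. Across the 241 RefSeq genes, zeros included, the peak counts of the lists had a Pearson r of 0.650, which was 0.197 without ZNF536, and a Spearman rho of 0.141. These are descriptions over genes, which share their 2 libraries.

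Genes with peaks in 1 list only were named by their counts. ZNF471 and ZNF573 had 3 abiraterone peaks each with none in the Romidepsin list, and ZNF121, ZNF20 and ZNF358 were among 6 genes with 2 and none. ZNF45 and ZNF578 had 6 Romidepsin peaks each and ZNF160, ZNF264 and ZNF568 had 4, with none in the abiraterone list. The lists differ in size, and an absent peak says only that none was called.

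Peaks within 1 kb of a start numbered 12 at 10 genes in the abiraterone list and 22 at 20 genes in the Romidepsin list, with no gene in common, that is 0 of 30 genes (interval 0 to 11.6). Of other chromosome 19 genes with such a peak in either list 6 of 186 had it in both (3.23%), and of all genes 347 of 4254 (8.16%), and the interval for ZNF genes includes both shares. The abiraterone genes were ZNF17, ZNF225, ZNF274, ZNF444, ZNF470, ZNF528, ZNF562, ZNF610, ZNF766 and ZNF85. Their folds ran from 2.69 to 3.80, and 5 of the 12 peaks reached a -log10 q of 2. The Romidepsin genes included ZNF91, ZNF331, ZNF347, ZNF675, ZNF708, ZNF726 and ZNF728, with folds of 2.58 to 4.30 and no peak at that level. Upstream of the start lay 4 of the 12 and 14 of the 22. Within 3 kb of a start, 5 genes had a peak in both lists, namely ZNF17, ZNF614, ZNF676, ZNF726 and ZNF829. That wider window holds more member peaks (31 and 54). The share of genes in both lists was not worked out for it at other genes, so the 5 are not set against the count within 1 kb. Of the close paralogs whose promoters are printed above, ZNF85 had its promoter peak in the abiraterone list, 473 bp downstream of a start at 21119469 on hg19. The outermost start of ZNF85 was 21106059, so the printed sequence may not be that of the start with the peak. ZNF91 (118 bp upstream), ZNF675 (573 bp upstream), ZNF726 (685 bp upstream) and ZNF708 (158 bp downstream) had theirs in the Romidepsin list. The peaks of these genes thus did not share a position relative to the start, and just 2 of the 12 and 9 of the 22 touched the stretch from 250 bases before the start to 50 after it.

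Further ZNF genes with a described role had 0 to 3 peaks in each list. ZNF91, which silences SVA retrotransposons, had 1 abiraterone peak 107396 bp upstream of its start and 2 Romidepsin peaks, 1 of them at the promoter (2.58-fold). ZNF93, which silences L1 elements, had 1 peak in each list, both distal intergenic, at 2.85-fold and 3.44-fold. ZNF274, which binds the 3′ ends of zinc finger genes and recruits SETDB1 there, had a pair of abiraterone promoter peaks (288 and 610 bp upstream) and 1 intronic Romidepsin peak (3.02-fold). ZNF331, an imprinted gene, had 3 Romidepsin peaks, in the promoter, an intron and the last exon, and none in the abiraterone list. ZNF350, a partner of BRCA1, had 2 Romidepsin intron peaks by name (4.30-fold and 2.58-fold). The stronger of them lay outside the limits of ZNF350, in an intron of a transcript without a gene identifier. ZNF382, a KRAB repressor described as a tumour suppressor, ZNF473, which takes part in histone mRNA 3′ end processing, and ZNF224, a WT1 cofactor, had no peak in either list.

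Peaks at ZNF genes were about as strong as others of chromosome 19. The fold over the control had a median of 2.84 in the abiraterone list (range 1.81 to 6.61) and of 2.61 in the Romidepsin list (range 1.74 to 6.97). Other chromosome 19 peaks had medians of 2.83 and 2.61. The folds were not normalized between the libraries and are not compared. A -log10 q of 2, that is q of 0.01, was reached by 31 abiraterone member peaks (19.6%, interval 13.7 to 26.7), against 24.9% of all peaks of that list, and by 4 Romidepsin member peaks (1.54%, interval 0.421 to 3.89), against 2.73% of all. At other chromosome 19 genes the shares were 19.4% and 1.24%. A single value of q was shared by 97 of the 158 abiraterone peaks (61.4%, -log10 q 1.57) and by 150 of the 260 Romidepsin peaks (57.7%, -log10 q 0.717), so most peaks cannot be ranked by it. The strongest abiraterone peaks were distal intergenic, at ZNF507 (6.61-fold, -log10 q 6.95, chr19:32815982-32816217), ZNF99 (6.27-fold), ZNF98 and ZNF492 (4.75-fold each) and ZNF766 (4.74-fold). The strongest Romidepsin peaks were at ZNF536 (6.97-fold, -log10 q 5.29, chr19:30707019-30707471), ZNF264 (5.23-fold), ZNF83 (5.21-fold) and ZNF347 (5.16-fold). Those of ZNF264, ZNF83 and ZNF347 lay in introns of the genes themselves. Next came several peaks tied at 4.35-fold, among them those of ZNF555, ZNF414 and ZNF100, each outside the limits of the gene named. ZNF536 was the only ZNF gene of chromosome 19 with a peak at -log10 q of 2 in both lists.

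Many abiraterone peaks were short and came in pairs. Of the 158, 45 were 130 bp wide or less (28.5%, interval 21.6 to 36.2), and every one of these 45 had another peak of the same list within 500 bp. The gap to it had a median of 183 bp. Among other chromosome 19 genes 176 of 599 were as short (29.4%), with such a neighbour for 175, so the pairs were not limited to ZNF genes. In the Romidepsin list 46 of 260 were as short (17.7%, interval 13.3 to 22.9), 28 with such a neighbour. At other chromosome 19 genes 155 of 1209 Romidepsin peaks were (12.8%, interval 11.0 to 14.8), 76 with such a neighbour, and the intervals overlap. On the other chromosomes 22.9% of abiraterone and 15.8% of Romidepsin peaks were as short. The ZNF274 promoter pair (125 bp each, 197 bp apart), the ZNF565 pair in ZNF146 and the ZNF43 pair at 1 Romidepsin peak are of this kind. The ZNF17 promoter peaks (184 and 156 bp) were wider but lay as close, 185 bp apart. Joining peaks of a list that lay within 500 bp of each other left 131 abiraterone and 235 Romidepsin member peaks, and a promoter share of 19.8% and 20.9%.

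**Figure D4:**
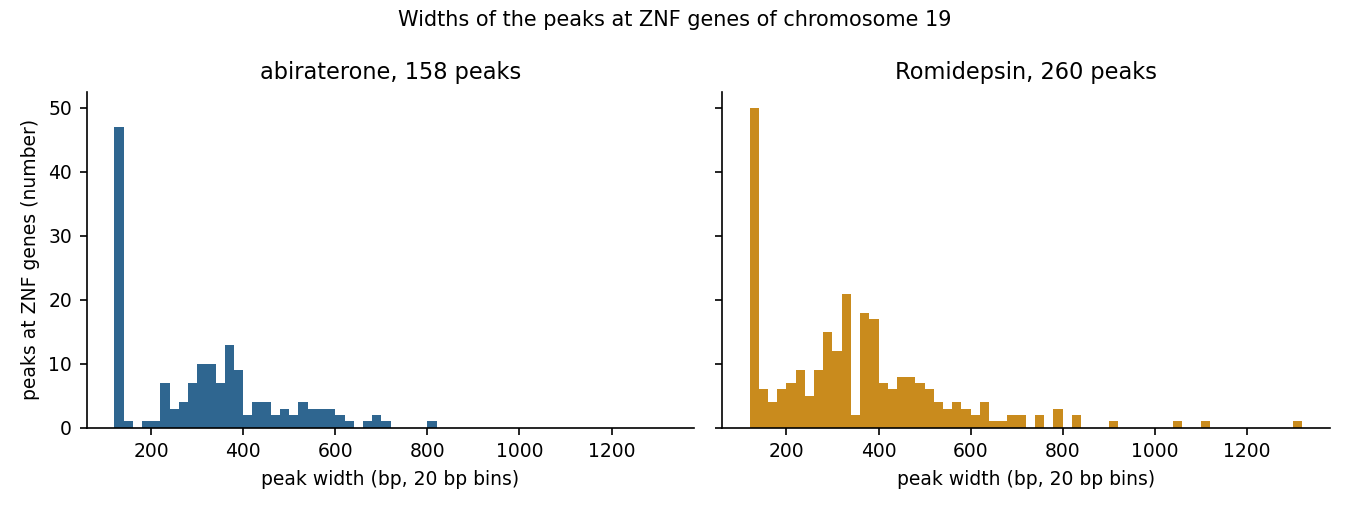
Widths (bp, horizontal axis, bins of 20 bp) of the peaks at ZNF genes of chromosome 19, as numbers of peaks (vertical axis), for the 158 abiraterone peaks on the left and the 260 Romidepsin peaks on the right. In both lists a narrow bar of the shortest peaks stands apart from a broad hump of wider ones.

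The Romidepsin list held more peaks at ZNF genes, by a ratio that varied along the chromosome. The ratio of Romidepsin to abiraterone member peaks was 1.65, against 2.02 at other chromosome 19 genes and 1.35 over all peaks. From 20 to 25 Mb, where 25 ZNF genes held 80.4% of the abiraterone and 90.9% of the Romidepsin peaks, the counts were 37 and 40, a ratio of 1.08. On the rest of the chromosome they were 121 and 220, a ratio of 1.82. Romidepsin peaks made up 51.9% of member peaks in the stretch (interval 40.3 to 63.5) and 64.5% outside it (interval 59.2 to 69.6), and these intervals overlap. The few peaks of other genes in the same stretch numbered 9 and 4. The ratio was also low from 15 to 20 Mb (1.20, with 5 and 6 member peaks) and from 35 to 40 Mb (1.19, with 21 and 25). From 25 to 30 Mb no ZNF gene had a peak, and from 30 to 35 Mb all 21 and 32 member peaks belonged to ZNF536 and ZNF507. From 50 to 55 Mb there were 21 and 46 member peaks and from 55 to 60 Mb 25 and 43.

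The partners through which KRAB zinc finger proteins silence DNA were also examined, as 20 genes. A peak was annotated to 12 of them in the abiraterone list and to 15 in the Romidepsin list, with 10 in both. Of the 18340 genes with a peak in either list, 13586 had one in the abiraterone list and 16451 in the Romidepsin list. Genes without any peak were not counted over the genome, so the shares of the 20 have no like share beside them. The peak counts below are not scaled by gene length. These 10 were 58.8% of the 17 with a peak in either list (interval 32.9 to 81.6), a range that includes the 63.8% of all genes. TRIM28, the partner that binds the KRAB domain, CBX1, which codes for an HP1 protein, and UHRF1, which maintains DNA methylation, had none in either list. SETDB1 had 1 abiraterone and 3 Romidepsin peaks, and ATF7IP, its cofactor, had 9 and 6, the most in the abiraterone list. SMARCAD1, a chromatin remodeller, had 4 and 8 peaks. HDAC1 and HDAC2, which are deacetylases inhibited by Romidepsin, had 1 abiraterone peak each, beside 1 and 4 Romidepsin peaks. A peak at -log10 q of 2 was present in the abiraterone list at ATF7IP, CBX3, CHD3 and SMARCAD1, and in the Romidepsin list at MORC3 (6.88-fold) only.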

How the data were processed

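C4-2B chromatin was precipitated with the H2A-K130ac antibody, and 1 library per treatment was analysed. The authors aligned reads with Bowtie 2 and called peaks with MACS2. The deposited lists are named as ChIP minus input, while the study's reporting form names the vehicle-treated sample as control. Whether duplicates were pooled is not stated. The deposited score equals a multiple of −log10 p cut to a whole number. Fold over the control (a ratio) and the −log10 p and q, all deposited by the authors, were used only within a list. The annotated tables deposited by the authors lack 1 row, on chromosome 1, and the conservative and optimal tables were identical. The processing notes name hg38, but the last peak on chromosome 1 ends at 249191832, past the last RefSeq gene of GRCh38.p14 and within hg19, so peak coordinates are given as hg19. Promoter sequences carry GRCh38.p14 coordinates. The lists hold no read counts, and the depth per peak is unknown.

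Members, gene lists and comparisons were chosen with earlier results of these data known. Genes named were those with most peaks, highest folds, promoter, exon or shared peaks, or greatest density, 10 genes of known role, and the partner genes. Overlaps, label parsing and counts were made in Python 3.11.15 with pandas 2.3.3, numpy 2.4.6 and scipy 1.17.1 and tested on simulated peaks. No test between treatments was made. Alternatives were other symbol rules, a −log10 q of at least 2, other overlap and gene rules, and, added after seeing the data, joining peaks within 500 bp and leaving out 20 to 25 Mb, ZNF536 or both.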

Additional observations from a re-analysis of the deposited data

How the results depend on the processing

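Of 108 alternative values for 21 results, 75 stayed within the main binomial interval or within 1.5 times the main value, and 21 did not. The other 12 concern the differences to other chromosome 19 genes, and the interval of each includes 0. In these, chosen after seeing the data, the promoter difference was -6.73 points (abiraterone) and -3.75 (Romidepsin) without ZNF536, -6.16 and -5.81 without 20 to 25 Mb, and -2.51 and -3.25 without both. The distal intergenic difference was 5.49 and 3.89, 2.70 and 4.39, and, with its sign turned, -2.34 and -0.951. No paired analysis was possible because there is 1 library per treatment. A −log10 q of at least 2 left 31 abiraterone and 4 Romidepsin member peaks. In the abiraterone list it gave a promoter share of 32.3% and a 3′ UTR share of 0%, in the Romidepsin list exon, 3′ UTR and promoter shares of 0% and a mean of 0.129 peaks per gene. It left 3.23% of genes with a peak in both lists and an overlap of 0% in each list. Within 1 kb of a start, the promoter shares were 7.59% and 8.46%. Only labels naming the gene itself gave a Romidepsin exon share of 1.92%. The mean number of peaks per gene was 0.464 and 0.765 for peaks inside the gene limits, against 0.952 and 1.57, and 1.66 for abiraterone over genes of that list only. The share of genes in both lists was 22.9% for peaks inside the limits and 24.1% without distal intergenic peaks. The overlap was 0.633% of abiraterone peaks when 50% of both was asked for, and 3.46% of Romidepsin peaks within 1 kb. The cause of these moves was not tested. Other symbol rules, the conservative tables and joined peaks moved none of the values they were run on past those bounds, nor did leaving out ZNF536 for the class shares and the mean number of peaks. The planned zinc finger counts per protein were not run, as no protein sequences were used here. With 4 Romidepsin peaks at that q, no share could be narrowed below an upper bound of 60.2%.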
